A study of Mus musculus with 32 samples.

Results

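Expression of 6 genes was followed across sorted muscle cells: Saa3, Hp, Lcn2, Serpina3n, Serpinb2 and Car4, which were found by symbol among the 55487 genes measured. They had been picked by name with results of these same libraries already known, including the difference between muscle with and without brown fat, so their values are given as a description and no p-value is given for any of them. The cells were satellite cells (the muscle stem cells) and fibro-adipogenic progenitors (FAPs, the mesenchymal cells between the fibres) of the supraspinatus, a rotator cuff muscle. Every muscle had been given cardiotoxin, a venom component that kills muscle fibres. In the BAT groups the injured muscle also received interscapular brown adipose tissue from a mouse 3 weeks old, and in the control groups it was injured only. The muscles of a pair were from 1 wild-type C57BL/6J male, 12 weeks old per the labels. No sham operation and no graft of another tissue was analysed here, so the presence of BAT cannot be told apart from the surgery. The 8 groups of 4 libraries were satellite cells with BAT and control at day 7, the same at day 3, FAPs with BAT and control at day 7, and the same at day 3. Each day had its own 4 mice, 8 in all. Replicate numbers match between the cell types at day 7 but not at day 3. There, satellite cell replicates 1, 2, 3 and 4 are of the mice of FAP replicates 2, 3, 4 and 1, the third pair by inference.

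The acute-phase response is the change in secreted proteins that follows tissue damage or infection. Interleukin-6, interleukin-1 and related cytokines act through the transcription factors STAT3, C/EBP and NF-kB, mostly in the liver, but fibroblasts and fat cells use the same route for some of these genes. Saa3 encodes a serum amyloid A made largely outside the liver, Hp encodes haptoglobin, which binds free haemoglobin, and Lcn2 encodes lipocalin 2, which binds the iron-carrying siderophores of bacteria. Serpina3n encodes a secreted inhibitor of serine proteases. The remaining pair fits the name "secreted acute-phase protein" less well. Serpinb2 encodes plasminogen activator inhibitor 2, a clade B serpin that stays largely inside the cell, and Car4 encodes carbonic anhydrase 4, an enzyme held on the cell surface by a lipid anchor.

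Library totals were 19.8 to 46.4 M counts (median 25.7 M). Levels are in CPM, the counts of a gene scaled by its library total, and 0 counts leave room for 0.0647 to 0.152 CPM, by counting error only. The sort took CD45-negative, CD31-negative, Sca1-positive cells, split by integrin alpha 7 into satellite cells, which bear it, and FAPs. Pdgfra, a receptor of FAPs, was at 251 to 436 CPM in FAPs, while Ly6a, which encodes Sca1, was at 2.38 to 42.8 CPM in satellite cells, although the labels call both gates Sca1-positive. The summed level of 26 macrophage genes was over 3 times the median of its cell type and day in 7 libraries, called macrophage-rich here. At day 3 these were BAT FAP replicate 1 (5740 CPM), satellite cell BAT replicate 4 (2315 CPM), both from the same muscle, and satellite cell control replicate 3 (2045 CPM). The other 4 were all the libraries of the day 7 mouse of replicate 3, at 76.8 to 118 CPM. This mouse also stood apart by the female-specific transcript Xist, at 163 to 355 CPM, and by the Y-linked Ddx3y, at 0, whereas the labels call all mice male. Results that rest on these libraries are given with and without them. In bulk samples of this kind, fewer cells of a type and less RNA per cell cannot be told apart.

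In the mm10 build with GENCODE M21 annotation, Saa3 (ENSMUSG00000040026) is at chr7:46711998-46715700 on the minus strand and Hp (ENSMUSG00000031722) at chr8:109575128-109579172 on the minus strand. Lcn2 (ENSMUSG00000026822) is at chr2:32384633-32388252, minus strand, and Serpina3n (ENSMUSG00000021091) at chr12:104406729-104414329, plus strand. Serpinb2 (ENSMUSG00000062345) is at chr1:107511423-107535478 and Car4 (ENSMUSG00000000805) at chr11:84957786-84966044, both on the plus strand. Serpina3n belongs to a cluster of near-identical Serpina3 genes and Serpinb2 overlaps Serpinb10. Reads could be shared with these other genes, so the values of both are uncertain. Fractional counts, as left by shared reads, were seen for Serpina3n (2553.32 in control FAP replicate 2 at day 7). They were also seen for Saa3 (447.45 in control satellite cell replicate 3 at day 7).

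Promoters were looked at because the genes varied together across libraries. RefSeq (GRCm38.p6) gave 250 bases before to 50 bases after a start site for Saa3, Lcn2, Serpina3n, Car4 and 2 start sites of Serpinb2. On both strands 3 motifs were searched: TTGCNNAA for C/EBP, TTCNNNGAA for STAT (a palindrome, counted once per site) and the NF-kB consensus. Of 32851 such windows, 10.8% held the C/EBP motif, 8.30% the STAT motif and 8.46% the NF-kB consensus. The 4 windows below are shown because they hold a match, given in capitals, with each gene read 5′ to 3′ on its own strand. Their positions are chr7:46715627-46715926 (minus) for Saa3, chr2:32387690-32387989 (minus) for Lcn2, chr1:107511173-107511472 (plus) for Serpinb2 and chr11:84957504-84957803 (plus) for Car4.
Saa3: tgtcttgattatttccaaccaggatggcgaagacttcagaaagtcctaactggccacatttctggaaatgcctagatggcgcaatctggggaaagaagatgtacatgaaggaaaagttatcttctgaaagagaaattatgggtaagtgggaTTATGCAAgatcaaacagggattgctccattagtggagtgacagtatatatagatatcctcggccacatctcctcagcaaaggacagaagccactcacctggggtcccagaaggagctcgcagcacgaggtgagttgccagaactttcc
Lcn2: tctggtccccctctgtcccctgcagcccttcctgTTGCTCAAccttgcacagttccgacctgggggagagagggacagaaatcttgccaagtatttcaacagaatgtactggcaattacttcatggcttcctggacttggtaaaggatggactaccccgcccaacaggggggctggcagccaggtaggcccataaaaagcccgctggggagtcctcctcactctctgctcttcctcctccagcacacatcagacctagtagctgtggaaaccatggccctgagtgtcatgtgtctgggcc
Serpinb2: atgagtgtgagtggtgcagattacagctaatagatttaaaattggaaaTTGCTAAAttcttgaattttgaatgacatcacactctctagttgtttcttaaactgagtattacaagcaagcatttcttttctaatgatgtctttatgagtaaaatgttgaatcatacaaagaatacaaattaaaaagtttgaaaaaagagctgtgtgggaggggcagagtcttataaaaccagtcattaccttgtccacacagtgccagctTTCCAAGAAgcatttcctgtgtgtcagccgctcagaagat
Car4: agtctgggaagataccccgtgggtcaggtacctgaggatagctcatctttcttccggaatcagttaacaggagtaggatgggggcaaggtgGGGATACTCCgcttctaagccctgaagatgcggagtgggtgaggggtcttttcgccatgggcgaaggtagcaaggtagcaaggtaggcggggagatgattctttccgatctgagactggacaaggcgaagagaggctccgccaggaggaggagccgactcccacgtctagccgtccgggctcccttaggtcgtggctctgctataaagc
The C/EBP match was at -99 to -92 from the start site in Saa3 (opposite strand), at -216 to -209 in Lcn2 and at -202 to -195 in Serpinb2. Serpinb2 also held a STAT match at 10 to 18, and Car4 held the NF-kB consensus at -159 to -150. The window of the other Serpinb2 start site overlaps the printed one and held a C/EBP match at -19 to -12 (opposite strand) and the same STAT match. No match overlapped another. The Serpina3n window held none of these letters, which says nothing about the factors.

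The first comparison asked what BAT changed in FAPs 3 days after injury. There 5 of the 6 genes were higher with BAT in 4 of 4 mice, and Serpina3n was higher in 3 of 4. Saa3 was at 31.5, 122, 54.4 and 82.2 CPM in BAT FAPs of replicates 1 to 4, against 7.69, 30.2, 8.29 and 13.8 CPM in control FAPs. The groups did not overlap, by a narrow margin, since the mouse of replicate 2 was highest in both. Its fitted log2 change was 2.36 ± 0.15 (SE, edgeR), the largest of the 6. Hp was at 216, 323, 346 and 258 CPM in BAT FAPs, against 60.9, 183, 70.8 and 79.2 CPM in control FAPs. Again the groups did not overlap and control replicate 2 stood above its group, with a fitted change of 1.69 ± 0.22. Lcn2 was at 6.65, 23.3, 12.4 and 15.05 CPM in BAT FAPs, against 3.87, 8.03, 4.28 and 8.98 CPM in control FAPs. Here BAT replicate 1 lay below 2 of the control libraries, and the fitted change was 1.18 ± 0.19.

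Serpinb2 was at 61.4, 60.0, 22.7 and 113 CPM in the day 3 BAT FAPs, against 32.2, 16.9, 9.39 and 16.7 CPM in control FAPs. BAT replicate 3 lay below control replicate 1, though above its own control, and the fitted change was 1.73 ± 0.27. Car4 was at 21.6, 20.05, 15.6 and 24.8 CPM in BAT FAPs, against 5.54, 9.70, 3.53 and 5.002 CPM in control FAPs. These groups were well apart, with a fitted change of 1.89 ± 0.23. Serpina3n differed from the others, at 38.6, 52.9, 47.3 and 52.5 CPM in BAT FAPs, against 47.3, 44.5, 26.2 and 48.4 CPM in control FAPs. The groups overlapped and the fitted change was 0.26 ± 0.16.

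**Figure D1:**
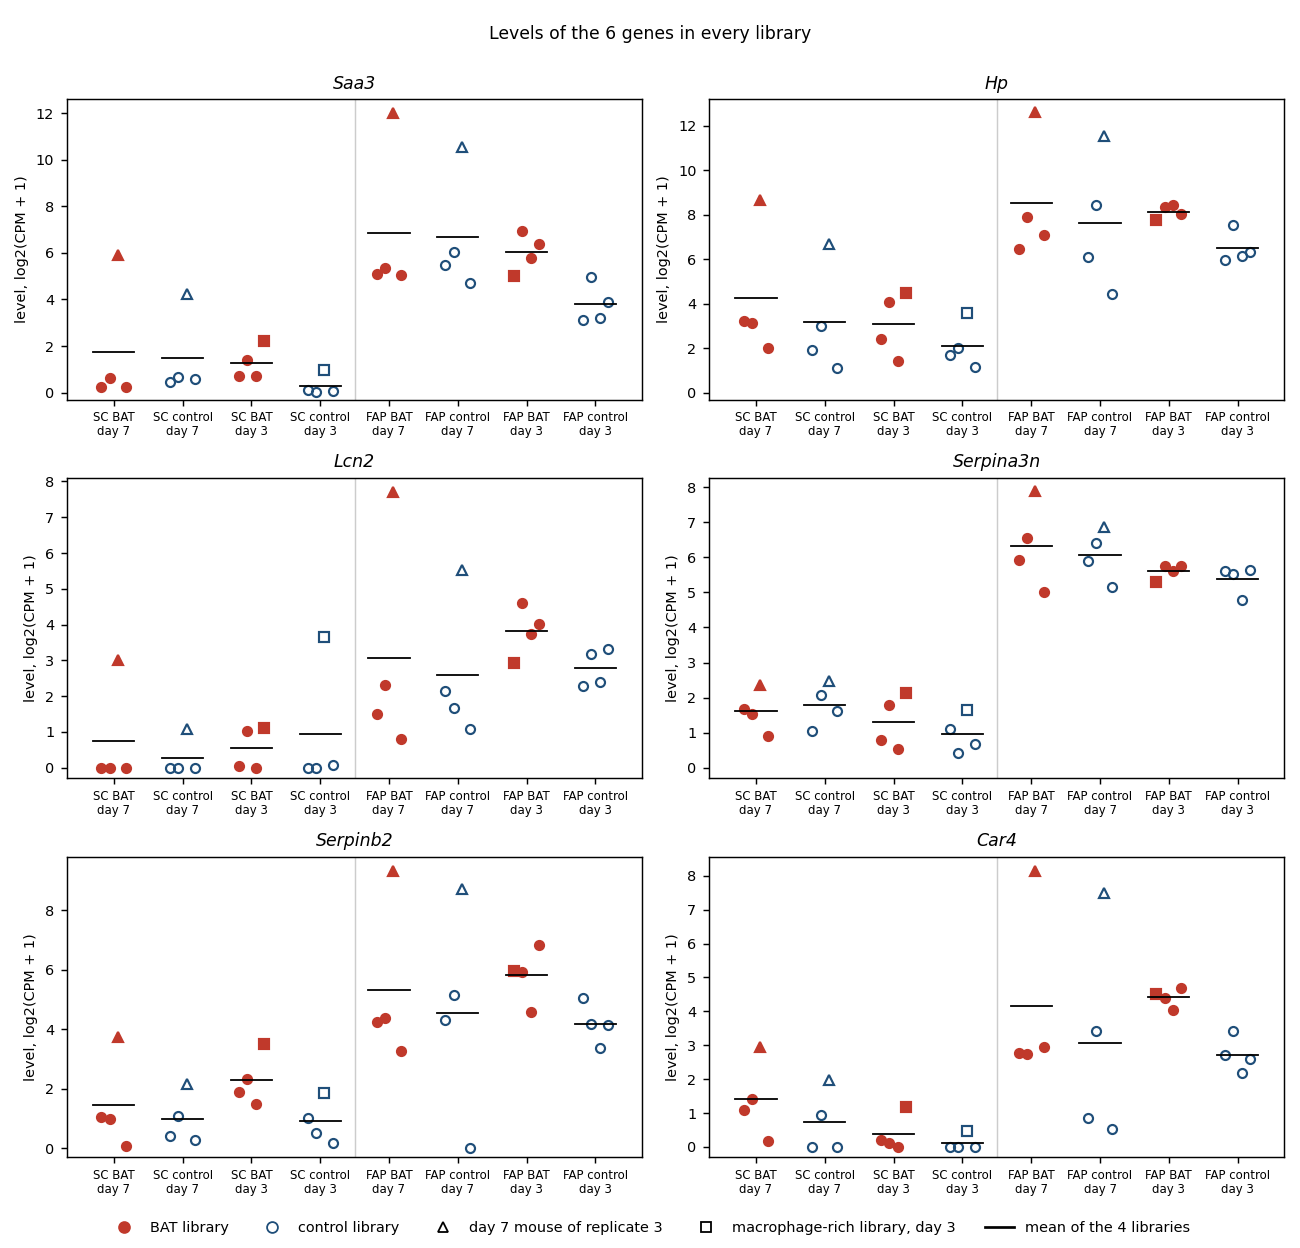
Levels of the 6 genes, as log2(CPM + 1), in each of the 32 libraries, with the mean of each group of 4 as a line. Most FAP libraries sit above satellite cells of the same day. Among the exceptions are Lcn2 in control satellite cell replicate 3 at day 3 (11.6 CPM) and several genes in satellite cell replicate 3 at day 7. With BAT these include Hp (407 CPM), Saa3 (59.3 CPM) and Lcn2 (7.08 CPM). BAT FAPs at day 3 sit above control FAPs for Saa3, Hp and Car4, and the triangles of the day 7 mouse of replicate 3 lie far above the other day 7 FAP libraries for every gene but Serpina3n.

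Across all genes, 0.0188% (3 of 15948) passed edgeR's quasi-likelihood test at a Benjamini-Hochberg adjusted p under 0.05 for BAT in FAPs at day 3, all of them higher. Saa3 was 1 of these 3. Of genes with a mean of at least 1 CPM, 5.31% were higher with BAT in 4 of 4 mice and 0.687% had every BAT library above every control library, as Saa3, Hp and Car4 did. Because the 6 genes were chosen with this contrast known, nothing is read from these counts. Saa3 lost its call with no replicate block and without the mouse of replicate 3 or 4, and kept it in the other alternatives. Without the mouse of replicate 1, whose BAT library was macrophage-rich, the fitted changes stayed close to those of all 4 mice, at 2.42 for Saa3, 2.00 for Serpinb2, 1.81 for Car4, 1.61 for Hp, 1.27 for Lcn2 and 0.41 for Serpina3n.

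Markers of other cells were read in the same FAP libraries, where the macrophage-rich BAT replicate 1 held the upper end of every BAT sum below. Outside that library, day 3 FAPs reached 128 CPM for macrophage, 32.5 CPM for erythroid and 29.5 CPM for adipocyte markers. For satellite cell, endothelial and neutrophil markers they reached 384, 21.3 and 24.1 CPM. The fitted signs below include that library. The macrophage sum was 20.8 to 5740 CPM in BAT FAPs and 17.1 to 75.0 CPM in control FAPs, and 19 of the 19 macrophage genes tested were fitted above 0. The erythroid sum was 2.60 to 409 CPM in BAT FAPs and 4.396 to 11.5 CPM in control FAPs. The sum of 10 FAP markers was 23115 to 31092 CPM in BAT FAPs and 28637 to 37776 CPM in control FAPs, with 9 of 10 fitted below 0. The adipocyte sum was 19.7 to 38.9 CPM in BAT FAPs and 10.7 to 24.0 CPM in control FAPs, with 2 of 2 genes tested above 0, while Ucp1, which marks brown adipocytes, reached 0.363 CPM in BAT FAPs and 0.223 CPM in control FAPs. The satellite cell markers summed to 307 to 506 CPM in BAT FAPs and 202 to 335 CPM in control FAPs, with 4 of 4 above 0, and the endothelial markers to 12.7 to 41.0 and 13.4 to 21.3 CPM, with 4 of 6 above 0. For neutrophils the sum was 15.3 to 57.2 CPM in BAT FAPs and 16.4 to 21.4 CPM in control FAPs, with S100a8 at up to 6.00 and 0.149 CPM and Ly6g at 0 in both. Alb, the albumin of hepatocytes, was at 0 in both. The part of these markers was not tested, beyond the values without replicate 1.

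At day 7 the FAP levels were set by 1 mouse. In the mouse of replicate 3, Saa3 reached 4048 CPM in BAT FAPs and 1494 CPM in control FAPs, where the other 3 mice had 31.9 to 39.8 CPM and 24.8 to 64.6 CPM. Hp reached 6176 CPM with BAT, where the others had 86.7 to 239 CPM, and 2989 CPM in control, where they had 20.7 to 343 CPM. Among the 13950 and 14065 genes compared, ranked by their ratio to the median of the other 3 mice, Saa3 was at rank 2 with BAT and 5 in control, and Hp at 6 and 4. Lcn2 reached 208 CPM with BAT, where the others had 0.729 to 3.95 CPM, and 45.5 CPM in control, where they had 1.10 to 3.43 CPM. Serpinb2 reached 638 CPM with BAT, where the others had 8.70 to 19.9 CPM, and 413 CPM in control, where they had 0 to 34.7 CPM. Car4 reached 282 CPM with BAT, where the others had 5.70 to 6.69 CPM, and 178 CPM in control, where they had 0.446 to 9.70 CPM. Serpina3n was again the exception, at 234 CPM with BAT, where the others had 31.0 to 91.8 CPM, and 116 CPM in control, where they had 34.4 to 83.7 CPM. A ratio over 4 was found for 0.796% of genes with BAT and 0.654% in control, and for 5 of the 6 genes in both.

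Part of the wider response was also high in that mouse. Over 4-fold higher than the median of the others were 5 of 23 other acute-phase genes with BAT and 5 of 23 in control, and 3 of 9 inducing cytokines with BAT and 1 of 9 in control. None of 14 cytokine receptors and 1 of 20 transcription and feedback genes were so in either. Csf3, Il6 and Slpi are given because they stood out. The cytokine Csf3, which drives granulocyte production, was at 167 CPM with BAT, where the other mice had 2.87 to 19.2 CPM, and at 83.0 CPM in control FAPs, where they had 0.979 to 30.6 CPM. Il6 was at 1121 CPM with BAT, where the others had 130 to 273 CPM, and 888 CPM in control, where they had 236 to 296 CPM. Slpi, a secreted protease inhibitor, was at 181 CPM with BAT, where the others had 2.36 to 7.08 CPM, and 81.3 CPM in control, where they had 2.16 to 6.95 CPM. Its tendon cell marker sum was 669 CPM with BAT (3716 to 3974 CPM in the other mice) and 1057 CPM in control (4037 to 6854 CPM), and its macrophage sum was 111 and 118 CPM. Its satellite cell marker sum was 995 CPM with BAT (231 to 637 CPM in the others) and 848 CPM in control (209 to 552 CPM), and 2 of 10 FAP markers were over 4-fold lower in each. Sex, batch and other features of a single mouse cannot be told apart.

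Within mice, BAT against control in FAPs at day 7 gave differences with a larger SD between mice than at day 3, where that of Saa3 was 2.24 ± 0.35 (SD, n = 4). The mean difference over 4 mice, as log2(CPM + 1), was 0.17 ± 0.95 (SD, n = 4) for Saa3, higher in 2 of 4 mice, and 0.87 ± 1.33 for Hp, higher in 3 of 4. It was 0.47 ± 1.26 for Lcn2, 0.26 ± 0.51 for Serpina3n, 0.76 ± 1.77 for Serpinb2 and 1.07 ± 1.38 for Car4. Each SD exceeded its mean. None of the 6 was higher in 4 of 4 mice, against 5.4% of all genes. No gene passed the test (0.0% of 16021 by edgeR, with 783 at an unadjusted p under 0.05 and 26 called by DESeq2). Without the mouse of replicate 3 the fitted changes of Saa3 and Lcn2 turned to -0.24 and -0.15, with 0.19 and 0.81 over all 4 mice, and that of Serpinb2 turned to -0.06 without replicate 4, whose control library is at 0 for this gene.

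**Figure D2:**
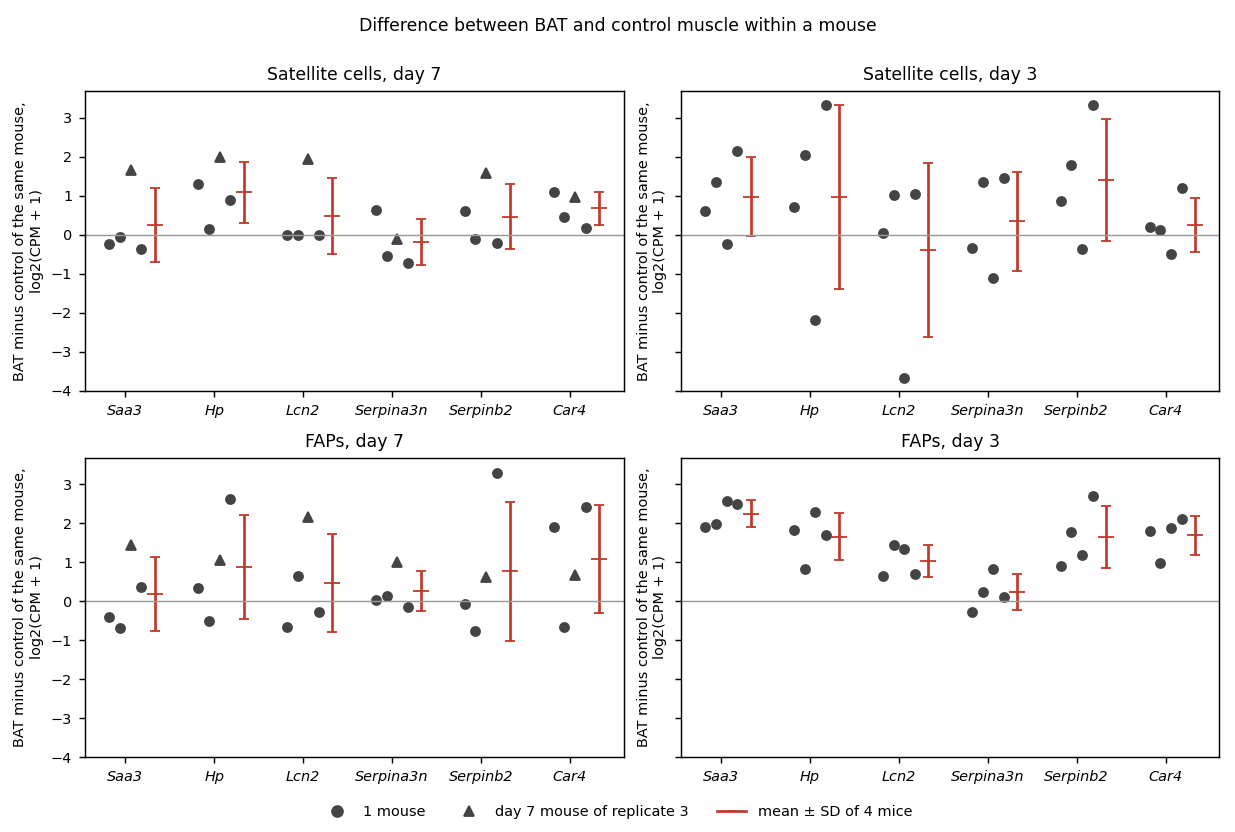
BAT minus control of the same mouse, as a difference of log2(CPM + 1), for each gene, cell type and day, with the mean ± SD of 4 mice. In FAPs at day 3 all 4 mice lie above 0 for every gene but Serpina3n, closest together for Saa3 (1.90 to 2.58) and widest for Serpinb2 (0.91 to 2.69). At day 7 and in satellite cells they lie on both sides of 0 for most genes.

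The difference between the BAT effects of day 7 and day 3 in FAPs was tested across all genes. Saa3 had a fitted difference of -2.16 ± 0.40 (log2, SE), Serpinb2 of -1.13 ± 0.86, Hp of -0.82 ± 0.57, Car4 of -0.68 ± 0.73 and Lcn2 of -0.46 ± 0.57, while Serpina3n was at 0.03 ± 0.27. None of the 6 passed, and neither did any other gene (0.0% of 17284 by edgeR, 579 at an unadjusted p under 0.05, and 1 called by DESeq2). Saa3 was called in 3 of 13 alternatives. The days also differ in mice and deposited table.

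A second question was which of the 2 cell types carried these transcripts. In control muscle, Saa3, Hp, Serpina3n and Serpinb2 were lower in satellite cells than in FAPs on both days. At day 3 the fitted log2 differences, satellite cells minus FAPs, were -6.15 ± 0.73 for Saa3, -4.80 ± 0.58 for Hp, -5.55 ± 0.31 for Serpina3n and -4.38 ± 0.62 for Serpinb2. At day 7 they were -6.84 ± 0.25 for Saa3, -5.30 ± 0.29 for Hp, -5.19 ± 0.29 for Serpina3n and -6.16 ± 0.84 for Serpinb2. Hp passed edgeR's test on both days, and Saa3 and Serpina3n at day 7, where 35.9% (day 3) and 22.6% (day 7) of all genes were lower in satellite cells. At day 3, control satellite cells held 1 to 24 counts of Saa3, 3 to 67 of Serpinb2 and 13 to 54 of Serpina3n. These genes entered that comparison with the help of the FAPs, so their day 3 calls are not counted. Neither is that of Serpinb2 at day 7, with 5 to 86 counts in control satellite cells. Without the mouse of satellite cell replicate 3, the day 3 difference was -8.40 for Saa3, -5.54 for Hp and -5.10 for Serpinb2, and it was -3.78 for Serpinb2 without the mouse of satellite cell replicate 4. At day 7 Serpinb2 was at -5.17 without the mouse of replicate 3.

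Lcn2 and Car4 did not pass the filter on low counts within day 3 satellite cells and entered the comparison of cell types through the FAPs, so their levels are given and their calls are not counted. Lcn2 was at 0, 0, 11.6 and 0.0457 CPM in control satellite cells at day 3, against 3.87 to 8.98 CPM in control FAPs. At day 7 it was at 0 CPM in 3 control satellite cell libraries and at 1.12 CPM in replicate 3, against 1.10 to 45.5 CPM in control FAPs. Satellite cell replicate 3 at day 3 thus lay above all control FAPs of that day. That library had a neutrophil marker sum of 227 CPM, against 2.18 to 2.65 CPM in the other 3, with Ngp, a neutrophil granule gene, at 78.1 CPM. The part of the neutrophil transcripts in its Lcn2 level was not tested. Car4 was at 0 CPM in 3 of the 4 control satellite cell libraries at day 3 and at 0.396 CPM in replicate 3, against 3.53 to 9.70 CPM in control FAPs.

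Satellite cell levels were then set against those of FAPs from the same muscle. At day 7 Saa3 in satellite cells was 0.526 to 2.06% of the FAP level over 8 muscles, Hp 2.01 to 9.61% and Serpina3n 1.77 to 6.07%. The summed FAP markers in the same satellite cell libraries were 3.83 to 10.8% of their FAP level. At day 3 the ranges were 0.251 to 11.5% for Saa3, 0.647 to 14.0% for Hp, 0.866 to 8.67% for Serpina3n and 0.426 to 17.5% for Serpinb2, with 1.09 to 10.1% for the FAP markers. Lcn2 was at 0 to 3.41% at day 7. Serpinb2 was at 0.500 to 5.91% at day 7 over 7 muscles. Car4 was at 0 to 29.3% at day 7, with 19.6 and 29.3% in the BAT muscles of replicates 1 and 2. Saa3 and Lcn2 at day 7 thus lay below the FAP marker range, while Hp, Serpina3n and Serpinb2 overlapped it. Car4 ranged from below to above it. The part of FAP RNA in these levels was not tested.

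**Figure D3:**
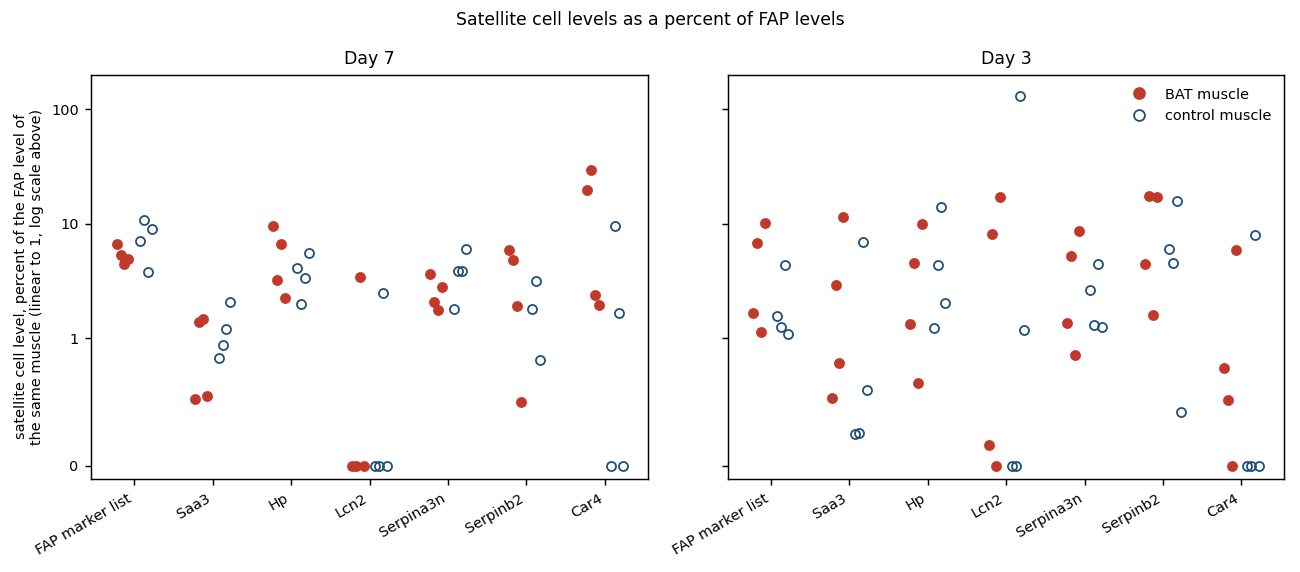
Satellite cell level of each gene and of the summed FAP markers, as a percent of the FAP level in the same muscle, at day 7 and day 3 (linear scale to 1, log scale above). The highest point is Lcn2 in the control muscle with neutrophil transcripts, at 129.

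In satellite cells at day 7, the mouse of replicate 3 again held the highest levels. Hp was at 8.33, 7.76, 407 and 3.00 CPM in BAT satellite cells, against 2.79, 6.90, 101 and 1.15 CPM in control satellite cells. It was higher with BAT in 4 of 4 mice, as was Car4, against 6.57% of all genes, while the groups overlapped because the mice differed. The fitted changes were 1.34 ± 0.27 for Hp and 1.83 ± 0.65 for Car4, and they were 1.01 and 2.38 without replicate 3. Car4 was at 1.13, 1.67, 6.72 and 0.131 CPM in BAT satellite cells, against 0, 0.935, 2.97 and 0 CPM in control satellite cells, so it stood near the limit that a count of 0 allows in several libraries. Saa3 was at 0.174, 0.557, 59.3 and 0.174 CPM with BAT, against 0.375, 0.613, 17.9 and 0.511 CPM in control, lower with BAT in 3 of 4 mice. Its fitted change of 0.60 ± 0.48 turned to -0.80 without replicate 3. Serpinb2 had a fitted change of 0.87 ± 0.50 and Serpina3n one of -0.25 ± 0.37 (0.04 without replicate 4), while Lcn2 was at 0 in 6 of the 8 libraries and did not enter the test. None of the 5 genes tested passed, against 0.0178% of all genes, each of which was lower with BAT.

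In satellite cells at day 3, Saa3 was at 0.652, 1.61, 0.663 and 3.62 CPM with BAT, against 0.0758, 0.0216, 0.951 and 0.0457 CPM in control. Of the 4 control libraries, 3 held only 1 or 2 counts of Saa3, so its fitted change of 3.16 ± 1.19 depends on the prior count and is no bound. Serpinb2 was at 2.68, 3.96, 1.82 and 10.4 CPM with BAT, against 1.02, 0.431, 2.65 and 0.137 CPM in control, with a fitted change of 2.30 ± 1.04. Hp was at 4.33, 15.7, 1.67 and 21.4 CPM with BAT, against 2.27, 3.08, 11.1 and 1.23 CPM in control, with a fitted change of 1.39 ± 1.14. In each gene the mouse of replicate 3 went the other way from the other 3. Serpina3n had a fitted change of 0.70 ± 0.95, which turned to -0.13 and -0.02 without replicate 2 and without replicate 4. Lcn2 and Car4 did not pass the filter on low counts.

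The satellite cell levels at day 3 were then set beside the FAP markers of each library. The FAP marker sum was 383, 1984, 326 and 3154 CPM in BAT satellite cells of replicates 1 to 4, against 446, 379, 1338 and 410 CPM in control. The highest Hp, Saa3 and Serpinb2 levels with BAT were in the libraries of replicates 2 and 4, and the highest in control were in that of replicate 3. Within each group these libraries also held the highest FAP marker sums. BAT replicates 1 and 3 held Saa3 at 0.652 and 0.663 CPM, against 0.0758, 0.0216 and 0.0457 CPM in control replicates 1, 2 and 4. Saa3 was also higher with BAT in the FAPs. As a percent of the FAP level of the same muscle, these Saa3 levels were 0.534 and 0.807%, against 0.251, 0.260 and 0.594%. The FAP marker sums were at 1.66 and 1.15%, against 1.56, 1.26 and 1.09%. For Hp the CPM of these libraries overlapped. BAT replicate 4 and control replicate 3 were the macrophage-rich libraries, and without both mice the fitted changes were 4.61 for Saa3, 2.29 for Serpinb2 and 1.71 for Hp. Without the mouse of replicate 3 alone they were 5.15, 3.23 and 2.43, and without that of replicate 4 alone 2.28, 1.35 and 0.40. All 4 mice gave 3.16, 2.30 and 1.39 on the same log2 scale, so each depended on single mice. The part of FAP RNA in these values was not tested. No gene passed the test (0.0% of 15631 by edgeR, 472 at an unadjusted p under 0.05, and 0 called by DESeq2), and none of the 6 was higher in 4 of 4 mice, against 4.34% of all genes. The BAT effect of satellite cells minus that of FAPs at day 3 was 0.37 ± 0.96 (log2, SE) for Saa3, -0.37 ± 1.16 for Hp, 0.46 ± 0.88 for Serpina3n and 0.42 ± 1.00 for Serpinb2. Each kept its sign in 7 of 9 alternatives, and none passed, against 0.0229% of all genes. At day 7 the difference was -0.53 ± 0.38 for Serpina3n to 0.74 ± 0.65 for Saa3 over the 5 genes tested within satellite cells, and none passed, against 0.0% of all genes (1205 of 18033 at an unadjusted p under 0.05 by edgeR, and 10 called by DESeq2).

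Between days, control FAPs were compared at day 7 and day 3. Saa3 had a fitted log2 change of 4.78 ± 1.3 and was the only one of the 6 to pass, against 11.5% of all genes higher at day 7. Without the day 7 mouse of replicate 3 the changes were 1.66 for Saa3, 0.72 for Hp, 0.62 for Serpina3n, 0.11 for Serpinb2, -0.50 for Car4 and -1.42 for Lcn2, where Hp, Serpinb2, Car4 and Lcn2 had 3.16, 2.71, 3.03 and 1.09 with it. Saa3 thus stayed higher at day 7 in the other mice, at 44.5 ± 19.9 CPM (SD, n = 3) against 14.998 ± 10.5 CPM (SD, n = 4) at day 3. It kept its call in 7 of 11 alternatives, the one without that mouse included. In control satellite cells, where 29.7% of all genes were higher at day 7, 4 of the 6 genes were tested. Saa3 had a fitted change of 3.86 ± 1.5 there. It entered that comparison with the help of the day 7 libraries, where it was high, so its call is not counted. Its counts in replicates 1 to 4 were 2, 1, 24 and 1 at day 3 and 11, 19, 447 and 12 at day 7. The size of the change thus depends on the prior count. That call was also lost in 5 of 11 alternatives, and the change of Saa3 was 0.66 without the day 7 mouse of replicate 3. Day cannot be told apart from mouse and deposited table.

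Ordered by the mean over 4 libraries, each gene was highest in BAT FAPs at day 7 and, Lcn2 apart, next in control FAPs at day 7. For every gene but Serpina3n that order rested on the mouse of replicate 3. Serpina3n averaged 60.8 ± 30.4 CPM in BAT FAPs and 58.7 ± 24.7 CPM in control FAPs over the other 3 mice at day 7 (SD, n = 3). At day 3 it averaged 47.8 ± 6.66 CPM in BAT FAPs and 41.6 ± 10.4 CPM in control FAPs (SD, n = 4). Over the other 3 mice, Saa3 averaged 34.9 ± 4.23 CPM in BAT FAPs and 44.5 ± 19.9 CPM in control FAPs at day 7 (SD, n = 3), both below the 72.5 ± 39.0 CPM (SD, n = 4) of BAT FAPs at day 3. In these mice Hp averaged 153 ± 78.1 and 144 ± 174 CPM, and Lcn2 2.16 ± 1.64 and 2.23 ± 1.17 CPM. Serpinb2 averaged 15.4 ± 5.92 and 17.9 ± 17.4 CPM, and Car4 6.06 ± 0.55 and 3.65 ± 5.24 CPM. BAT FAPs at day 3 averaged 286 ± 59.6, 14.3 ± 6.92, 64.3 ± 37.2 and 20.5 ± 3.83 CPM for these genes in that order. Neighbours in the order overlapped in all but 2 cases. Car4 in BAT FAPs at day 3 lay above control FAPs at day 3, and Serpina3n in control FAPs at day 3 lay above control satellite cells at day 7. Per kilobase of exon, Hp led the 6 in BAT FAPs at day 3 with 178 CPM per kb, followed by Saa3 at 27.8, Serpinb2 at 27.4, Serpina3n at 23.2, Car4 at 10.4 and Lcn2 at 5.47 CPM per kb. In control FAPs at day 3 the levels were 61.3 CPM per kb for Hp, 20.2 for Serpina3n, 8.00 for Serpinb2, 5.76 for Saa3, 3.02 for Car4 and 2.40 for Lcn2. With BAT, the levels of Saa3, Serpinb2 and Serpina3n did not differ beyond their spread between libraries.

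The rest of the pathway was described by lists of genes, none of which had a gene past the test for BAT in either cell type on either day. In FAPs at day 3, 24 other acute-phase genes had a median log2 change of 0.35, with 21 fitted above 0, where the median of all genes was -0.01. The 3 most abundant were Mt1 and Mt2, the metallothioneins that bind zinc and copper, and Serping1, the inhibitor of complement C1. They had fitted changes of 0.33 ± 0.10, 0.29 ± 0.10 and 0.31 ± 0.10. Of 9 inducing cytokines 8 were fitted above 0 (median 0.72), with Lif at 0.99 ± 0.10, Il6 at 0.72 ± 0.12 and Il33 at 0.35 ± 0.09. All these list values include the macrophage-rich BAT replicate 1. Cd14, at 1.56 ± 0.76, is in both the acute-phase and the macrophage list. Il6 averaged 503 ± 209 CPM in BAT FAPs and 314 ± 129 CPM in control FAPs, and Lif 151 ± 50.1 and 77.8 ± 24.8 CPM (SD, n = 4 each).

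Downstream, the list medians of the receptors and of the transcription and feedback genes stood near the median of all genes, while single genes spread around it. The receptors ranged from Il17rc at -0.26 ± 0.16 to Il1rl1. The transcription and feedback genes ranged from Fkbp5 at -0.18 ± 0.20 to Zc3h12a at 0.50 ± 0.20, with Cebpb at 0.43 ± 0.17 and Cebpd at -0.14 ± 0.23. Of 14 cytokine receptors 9 were fitted above 0 (median 0.13), with Il1rl1, the receptor of interleukin-33, at 0.52 ± 0.14, Tnfrsf12a at 0.17 ± 0.10 and Tnfrsf1a at -0.02 ± 0.10. Of 20 transcription and feedback genes 10 were above 0 (median 0.02), with Nfkbia, the inhibitor of NF-kB, at -0.01 ± 0.15, Klf6 at -0.08 ± 0.10 and Atf3 at 0.10 ± 0.16. The partners and targets of the 6 proteins had a median of 0.34 over 15 genes, with the protease Ctsl at 0.39 ± 0.22, the plasminogen activator Plat at 0.05 ± 0.10 and the protease inhibitor Serpine2 at -0.04 ± 0.11. The families of Car4 and Serpinb2 were near 0: 9 other carbonic anhydrases had a median of -0.06 (Car13 0.31 ± 0.08, Car5b -0.21 ± 0.17, Car3 -0.14 ± 0.70). The 7 other clade B serpins had a median of -0.02 (Serpinb1a 0.04 ± 0.09, Serpinb6a -0.14 ± 0.09, Serpinb9 -0.02 ± 0.14). Negative acute-phase genes, which the liver lowers in the response, had 2 of 4 above 0 (Rbp4 0.44 ± 0.13, Fetub 0.38 ± 0.19, Igf1 -0.09 ± 0.11).

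**Figure D4:**
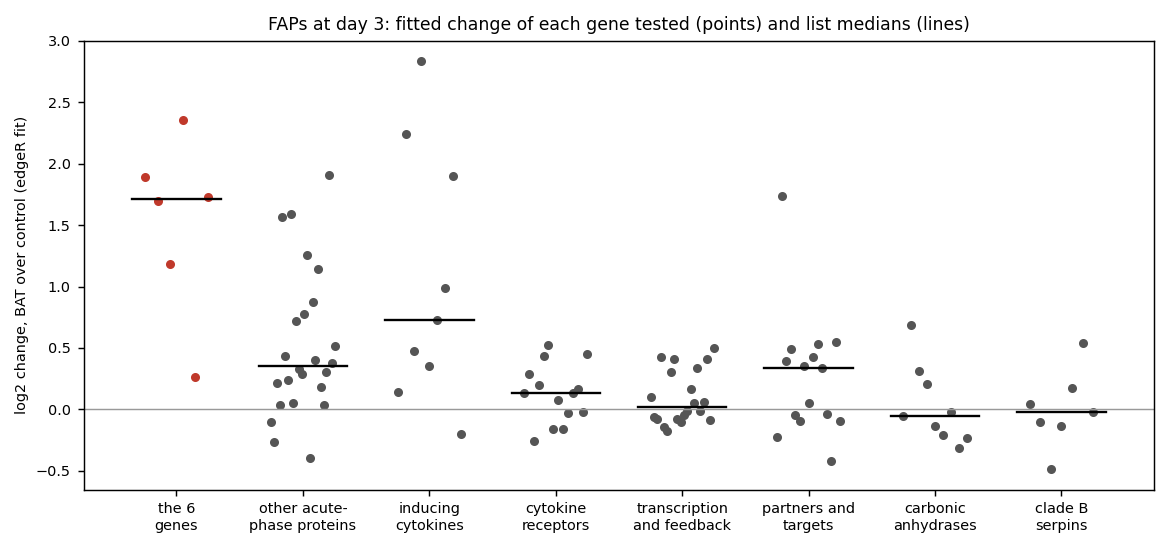
Fitted log2 change, BAT over control, in FAPs at day 3 for each gene tested in 7 lists and for the 6 genes, with list medians as lines. The 6 genes were chosen with these values known; among the other lists the cytokines (median 0.72) and other acute-phase proteins (0.35) lie highest.

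At day 7 in FAPs the medians were 0.13 for 24 other acute-phase genes and 0.28 for 9 cytokines, where the median of all genes was -0.01. In satellite cells the acute-phase median was 0.22 over 18 genes at day 7 and 0.67 over 14 genes at day 3, with the FAP markers of those libraries as given above. Between cell types in control muscle, 19 of 22 other acute-phase genes were called lower in satellite cells at day 3 (median -5.34) and 21 of 24 at day 7 (median -2.81). Of the cytokines, 7 of 9 were called lower on each day, where the share over all genes was 35.9% at day 3 and 22.6% at day 7. Genes that passed the filter only through FAPs are among them. Il6 differed by -6.16 ± 0.44 at day 3 and -2.24 ± 0.34 at day 7. Between days in control FAPs, 6 of 26 other acute-phase genes were called higher at day 7 and 1 lower (11.5% of all 16144 genes were higher, and 1848 of them lower), Serping1 among the first at 1.66 ± 0.21.

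Genes with the most similar pattern were ranked by Pearson's r of log2(CPM + 1) over the 32 libraries among 14547 genes, which share cell type, day and the mouse of replicate 3. For Saa3 they were Hp (0.962), Ereg (0.934) and Serpina3i (0.927), and for Hp they were Saa3, Ereg (0.940) and Car4 (0.937). Serpinb2 was nearest to Car4 (0.932), Hp (0.918) and Il13ra2 (0.913), and Car4 to Il13ra2 (0.954), Serpina3i (0.946) and Hp. Lcn2 was nearest to Slpi (0.923), Il13ra2 (0.903) and Kng2 (0.886). Serpina3n was nearest to the complement genes C3 (0.980) and Cfb (0.978) and to Slfn10-ps (0.977). With group means removed, Saa3 stayed nearest to Hp (0.933), followed by Xist (0.928) and Slpi (0.908), the second of which marks the mouse of replicate 3. By the same measure Serpina3n was nearest to Dram1 (0.890), Cxcl12 (0.846) and Il4ra (0.839). Hp was nearest to Saa3, Slpi (0.909) and Xist (0.881), and Lcn2 to Slpi (0.916), Saa3 (0.896) and Cyp7b1 (0.878). Car4 was nearest to Serpina3i (0.936), Il13ra2 (0.933) and Sod2 (0.926), and Serpinb2 to Tpx2 (0.916), Car4 (0.906) and Ccnb1 (0.889).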

How the data were processed

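RNA from sorted cells (10 ng per library) was made into cDNA (SMARTer Ultra Low kit), as the labels' protocols say. The authors deposited expected counts per gene, not normalised, in a table for each day; DRAGEN and the mm10 build were used, per the submitters' processing notes, and their versions, the annotation and the strand handling are not given in these sources. Of values above 0, 71.8% were whole (no tolerance). From 55774 entries 287 repeats were removed.

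Levels are plain CPM from library totals. Expected counts were rounded and tested with edgeR 4.0.16 in R 4.3.3 (quasi-likelihood F test, TMM scaling, filterByExpr with minimum count 10 and minimum total 15, Benjamini-Hochberg adjusted p under 0.05 over all genes), with the mouse as a block within a day. A standard error is the size of the log2 change divided by the root of its F statistic. The scripts were tested on simulated data. DESeq2 1.42.0, its size factors, no filter, no block, leaving out replicates and leaving out mice with a macrophage-rich library were the alternatives.

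The pairing comes from the study's design text, by which BAT and control samples came from the same mouse. After group means were removed, paired libraries correlated on average at 0.617 (FAPs) and 0.461 (satellite cells) at day 7, and of 0.170 and 0.0270 at day 3. At day 3 satellite cell replicate 3 and FAP replicate 4 carry no mouse code, and their 4 libraries were taken as 1 mouse, an inference. Unnumbered libraries were named replicate 4. All libraries of a group differed beyond counting noise (chi-square at least 15.5 times its degrees of freedom).

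The 6 genes and the gene lists were chosen with earlier results of these data known. Named besides the 6 are, from each list, the 3 genes of highest mean CPM and any gene past the threshold for BAT, and the 3 genes of highest r. Other genes named for the day 7 mouse of replicate 3 (Csf3, Slpi, Il6) and single marker genes were chosen after their values were seen.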

Additional observations from a re-analysis of the deposited data

Results flagged for a closer look

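Among 48 sets of 4 libraries (6 genes in 8 groups), 22 held a library whose gap to the others exceeded Dixon's critical value for 4 values, where chance gives about 1 in 20. Of these, 17 were libraries of the day 7 mouse of replicate 3. In its BAT FAPs they were Saa3 (4048 CPM), Hp (6176 CPM), Lcn2 (208 CPM), Serpinb2 (638 CPM) and Car4 (282 CPM), and in its control FAPs Saa3 (1494 CPM), Hp (2989 CPM), Lcn2 (45.5 CPM), Serpinb2 (413 CPM) and Car4 (178 CPM). In its BAT satellite cells they were Saa3 (59.3 CPM), Hp (407 CPM), Lcn2 (7.08 CPM) and Serpinb2 (12.3 CPM), and in its control satellite cells Saa3 (17.9 CPM), Hp (101 CPM) and Lcn2 (1.12 CPM). Serpina3n stood apart in no library.

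The other 5 were at day 3. In the macrophage-rich library of control satellite cell replicate 3, Saa3 was at 0.951 CPM (0.0216 to 0.0758 CPM in the other 3), Lcn2 at 11.6 CPM (0 to 0.0457 CPM) and Car4 at 0.396 CPM (0 in the others). Car4 was at 1.28 CPM in the macrophage-rich library of BAT satellite cell replicate 4 (0 to 0.153 CPM in the others). In control FAP replicate 2, Hp was at 183 CPM (60.9 to 79.2 CPM in the others).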

How the results depend on the processing

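Depth limits the satellite cell values most, where several levels rest on 1 or 2 counts. Counts of genes called for BAT are few and unstable. In FAPs at day 3 there were 3, against 63 with no filter, 40 with DESeq2, 27 without the mouse holding a macrophage-rich library (the same fit as without replicate 1), 0 with no replicate block and 0 to 27 without each replicate. In FAPs at day 7 there were 0, against 145, 26 and 0 to 1 (no filter, DESeq2, leave-one-out). In satellite cells at day 7 there were 3, against 206, 39, 0 with no replicate block, and 0 to 14. In satellite cells at day 3 there were 0, with 1 without the mice holding a macrophage-rich library and 0 without each replicate. The difference of BAT effects between cell types at day 3 had 4, against 15, 12, 0 with no replicate block, 2 without macrophage-rich mice, and 0 to 12. At day 7 it had 0, against 183 and 10. The difference between days had 0 in satellite cells, against 1 and 7, and 0 in FAPs, against 100, 1, 1 without macrophage-rich mice, and 0 to 1. Day 7 against day 3 in control FAPs had 3711, and 1980 to 4626 without each library. The cause was not tested. The mouse as a block changed no other call of the 6 genes for BAT in FAPs at day 3 than that of Saa3. Among log2 changes of the 6 genes under alternatives, 27 moved by over 2 standard errors and 620 did not.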
